A study of Apis mellifera with 96 samples.

Results

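Honey bee genes that carry only a LOC number, the identifier NCBI gives to a gene model without a symbol, were examined where they were lower in foragers than in nurses at both ages. The members were chosen from the measured values. A LOC gene entered with a mean of at least 10 CPM, that is, counts scaled to a common total of 1000000, a forager minus nurse difference R of at most -0.4 on the log2(CPM + 1) scale, a day difference smaller in size than 50% of R, and a change of R between days smaller in size than R. Of 9935 genes in the table, 9537 were LOC genes and 5601 of these reached the mean CPM. R was at most -0.4 in 115 of them, and 65 met every condition. All 65 were taken, since the limit of 80 was not reached. Forager minus nurse and day values of these genes are therefore descriptions of how they were chosen and carry no test.

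The samples were untreated wild-type worker bees (Apis mellifera), each taken whole. One-day-old adults from 6 origin colonies (107, 109, 115, 122, 127 and 137) had been shared out over 3 nuclear hives with queens and honey frames, and foragers and nurses were caught on day 7 and day 26 in a series concerned with imidacloprid, an insecticide these bees had not been given. TagSeq, which counts transcripts by short reads close to their 3' ends, was run on 22 foragers' and 22 nurses' libraries from day 7, and on 24 foragers' and 24 nurses' libraries from day 26. Day of capture, age and time in the hives run together, and the number of bees per library is not given in the labels.

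Worker honey bees pass from nursing inside the hive to foraging outside it. Nurses have large hypopharyngeal glands that secrete brood food rich in major royal jelly proteins, encoded by Mrjp1 and its relatives, and a fat body that makes the yolk protein vitellogenin, encoded by Vg. In foragers the glands shrink and turn to enzymes that process nectar sugar, and vitellogenin declines. Many genes of these tissues have names, and the 65 described here have none. The reference gene table gave 1 of the 65 an older name, CYP6AS11 for LOC724946, a name of the cytochrome P450 family, whose members oxidise small molecules.

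Totals on genes ranged over 197805 to 2300891 counts per library. Reads counted as not aligned made up 69.9% ± 4.12 (SD) of the reads over 46 forager libraries and 65.5% ± 3.01 over 46 nurse libraries. Mrjp1 stood in the range of the other role in 12 libraries, 7 of foragers above 16384 CPM and 5 of nurses below 8192 CPM. In 8 libraries, 4 of them from colony 115, mitochondrial transcripts departed from the profile of the labelled colony. Of 133 pairs of libraries within a group, 5 were nearly alike, though each still differed by more than counting error.

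The 65 genes took 1.36% ± 0.436 (SD, n = 46) of all counts on genes in foragers and 3.25% ± 1.21 (SD, n = 46) in nurses. Their mean level ran from 12.6 to 5172 CPM, with 6 genes at 1000 CPM or more and 37 under 100 CPM. R had a median of -0.82 over the 65 genes and of 0.22 over the 5601 LOC genes considered, which became -0.0012 with TMM scaling (trimmed mean of M-values). R was at most -1 in 26 members and between -1 and -0.4 in 39. The last genes inside the limit were LOC408559, with an R of -0.42, and LOC725756, with an R of -0.40. The nearest genes outside it were LOC726352, with an R of -0.40 that rounds to the limit, and LOC409017, with an R of -0.39. Among genes turned away by a day condition, LOC678674 had an R of -2.32 but a day difference of -3.91.

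Values below are CPM scaled with TMM factors, and fold changes come from a model of counts with 1 mean for each colony, role and day. LOC727522 had the lowest R. At day 7 it lay between 11.4 and 100.2 CPM in foragers, with a median of 35.4, and between 17.8 and 4091 CPM in nurses, with a median of 793. At day 26 it lay between 12.7 and 430 CPM in foragers, with a median of 24.3, and between 9.64 and 1878 CPM in nurses, with a median of 319. The groups overlapped at both days, yet 25 of the 46 nurses stood above every forager. Its fitted level was 21.0-fold lower in foragers, a log2 difference of -4.39 ± 0.36 (SE).

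LOC725215 was a low-level gene with nearly as large a difference. It had 0 to 17.9 CPM in foragers at day 7, with a median of 1.05, and 0 to 152.8 CPM in nurses at day 7, with a median of 36.2. No count was found in 8 forager libraries and in 1 nurse library. The fitted log2 difference was -3.87 ± 0.36 (SE), a 14.6-fold lower level in foragers. Only 7 nurses stood above every forager, because colony 122 forager replicate 2 of day 26 reached 92.7 CPM.

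LOC724386 was the most abundant of the 65 genes. Foragers had 367 to 2890 CPM at day 7, with a median of 979, and nurses had 635 to 19870 CPM, with a median of 10234. At day 26 the medians were 856 CPM in foragers and 7195 CPM in nurses, and the highest forager reached 9244 CPM. Its fitted level was 6.70-fold lower in foragers, and 24 nurses stood above every forager. LOC724749, a far less abundant gene, had median levels of 10.1 CPM in foragers and 106.5 CPM in nurses over both days, a 7.84-fold lower fitted level in foragers. LOC409341 had medians of 386 CPM in foragers and 1722 CPM in nurses, 5.61-fold lower in foragers. LOC551224 had medians of 4.92 CPM in foragers and 29.1 CPM in nurses, and 26 of 46 nurses lay above every forager. In each of these 6 genes the roles overlapped, with 7 to 26 of the 46 nurses above every forager and 2 to 5 nurses below the forager median.

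**Figure D1:**
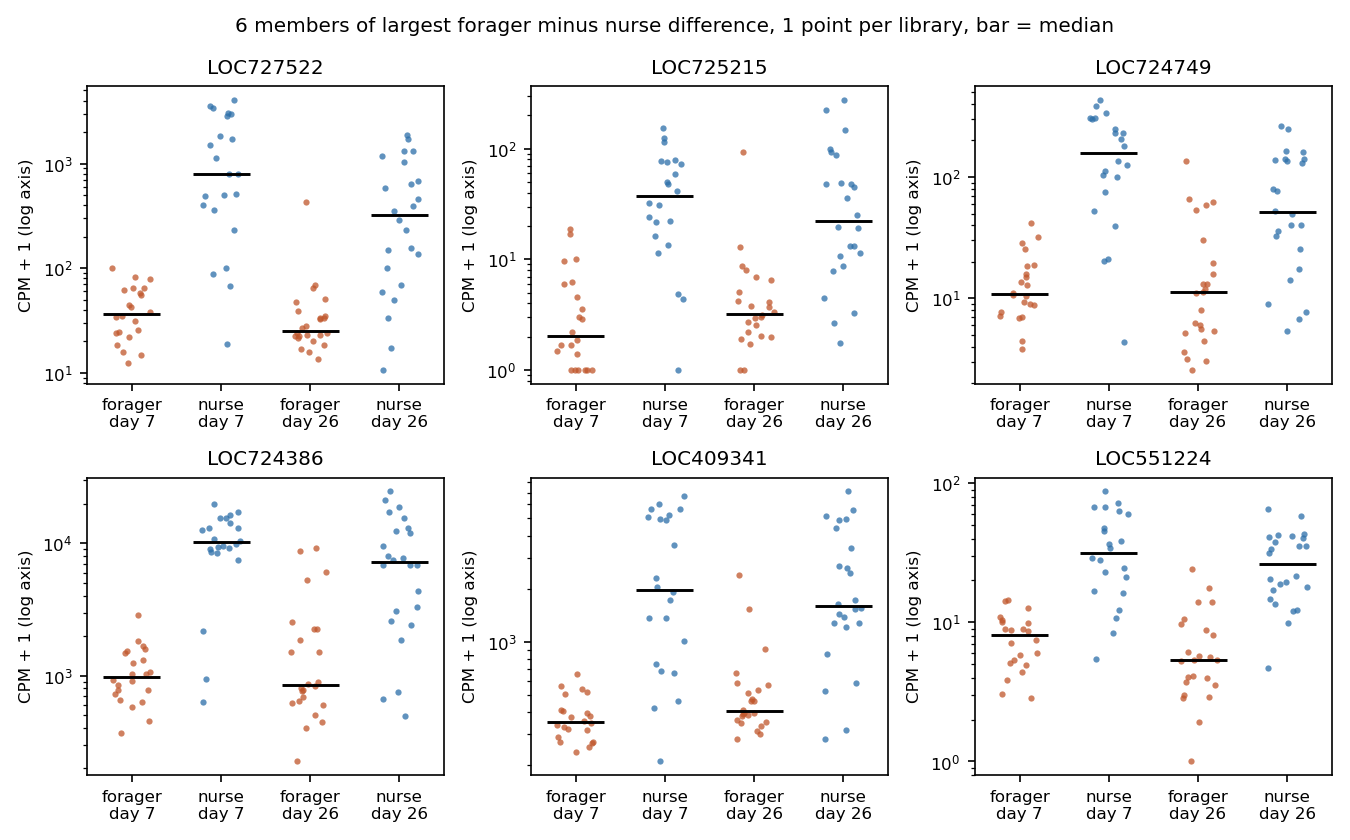
CPM + 1 on a log axis in each library for the 6 genes of lowest R, by role and day, foragers in red and nurses in blue, with the median as a bar. The nurse median lies above the forager median at both days, the roles overlap, and for LOC727522 25 of 46 nurses exceed every forager.

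The remaining genes showed smaller differences of the same sign. LOC724480, LOC550828, LOC102655078, LOC724308, LOC409626 and LOC100576797 were 4.97-, 4.26-, 3.92-, 3.79-, 3.74- and 3.39-fold lower in foragers. LOC410894 and LOC725380, which follow LOC724386 in abundance, had medians of 1832 and 1405 CPM in foragers and of 3635 and 3282 CPM in nurses. The cytochrome P450 gene LOC724946 had 3.38 to 30.2 CPM in foragers, with a median of 16.9, and 7.80 to 70.8 CPM in nurses, with a median of 27.8. In LOC725756, the last gene inside the limit, no nurse exceeded every forager. Over the 65 genes the fitted log2 difference had a median of -1.12, and the fold exceeded 2 in 38 genes and 4 in 8 genes. By edgeR's quasi-likelihood test with Benjamini-Hochberg adjustment, 65 of 65 were lower in foragers, against 14.8% of the 6753 genes tested, which the choice of the genes fixed. The difference was larger at day 7 in 39 genes and at day 26 in 26.

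In whole bees, fewer cells of a type and less RNA per cell cannot be told apart. Markers of several tissues moved with role. Summed CPM of the royal jelly genes Mrjp1, Mrjp2, Mrjp3, Mrjp4 and Mrjp7 spanned 386 to 107615 in foragers, with a median of 4883, and 1499 to 250577 in nurses, with a median of 110016. Of the relatives outside that sum, Mrjp5 was lower in foragers, at a log2 difference of -2.16 ± 0.26 (SE), and Mrjp6 was higher, at 0.97 ± 0.21. The fat body genes Vg, Vhdl, Hex110 and Hex70a summed to a median of 256 CPM in foragers and 2460 CPM in nurses, with ranges of 104 to 5215 and of 111 to 18839 CPM. Venom gland genes Melt, Apamin, Mcdp and Pla2 summed to medians of 770 CPM in foragers and 5792 CPM in nurses. The eye opsins Lop1, Blop and Uvop had medians of 205 CPM in foragers and 164 CPM in nurses, and the muscle genes TpnT and TpnCI had 282 and 380 CPM. Hbg3, the sugar enzyme of the foragers' glands, had medians of 2638 CPM in foragers and 505 CPM in nurses. Each marker was found in both roles, and the part of these tissues in the role difference of the 65 genes was not tested.

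Agreement between colonies was described gene by gene. In 64 of the 65 genes the fitted level was lower in foragers of all 6 colonies, a pattern found in 12.4% of the genes tested. The genes were chosen by their mean difference over these same colonies, which favours this count, so it is a description only. The exception was LOC551562, whose log2 difference was 0.63 in colony 115 and below 0 in the others. These differences are means over both days, and within 1 day the order was not always kept. At day 26 in colony 122, a minority of the genes had a higher mean in foragers. There LOC724749 had a mean log2(CPM + 1) of 4.98 in foragers and 4.37 in nurses, and LOC102655078 had 3.66 and 2.88. The median difference over the 65 genes was -1.67 in colony 107, -1.11 in 109, -0.94 in 115, -0.64 in 122, -0.86 in 127 and -1.34 in 137. The most negative difference fell in colony 107 for 45 genes and the least negative in colony 122 for 38. The forager minus nurse difference of Mrjp1 was -5.22 in colony 107, -3.36 in 109, -2.98 in 115, -1.58 in 122, -4.55 in 127 and -3.43 in 137. Colony 127 thus had the second widest difference of Mrjp1 but the second narrowest median over the 65 genes.

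**Figure D2:**
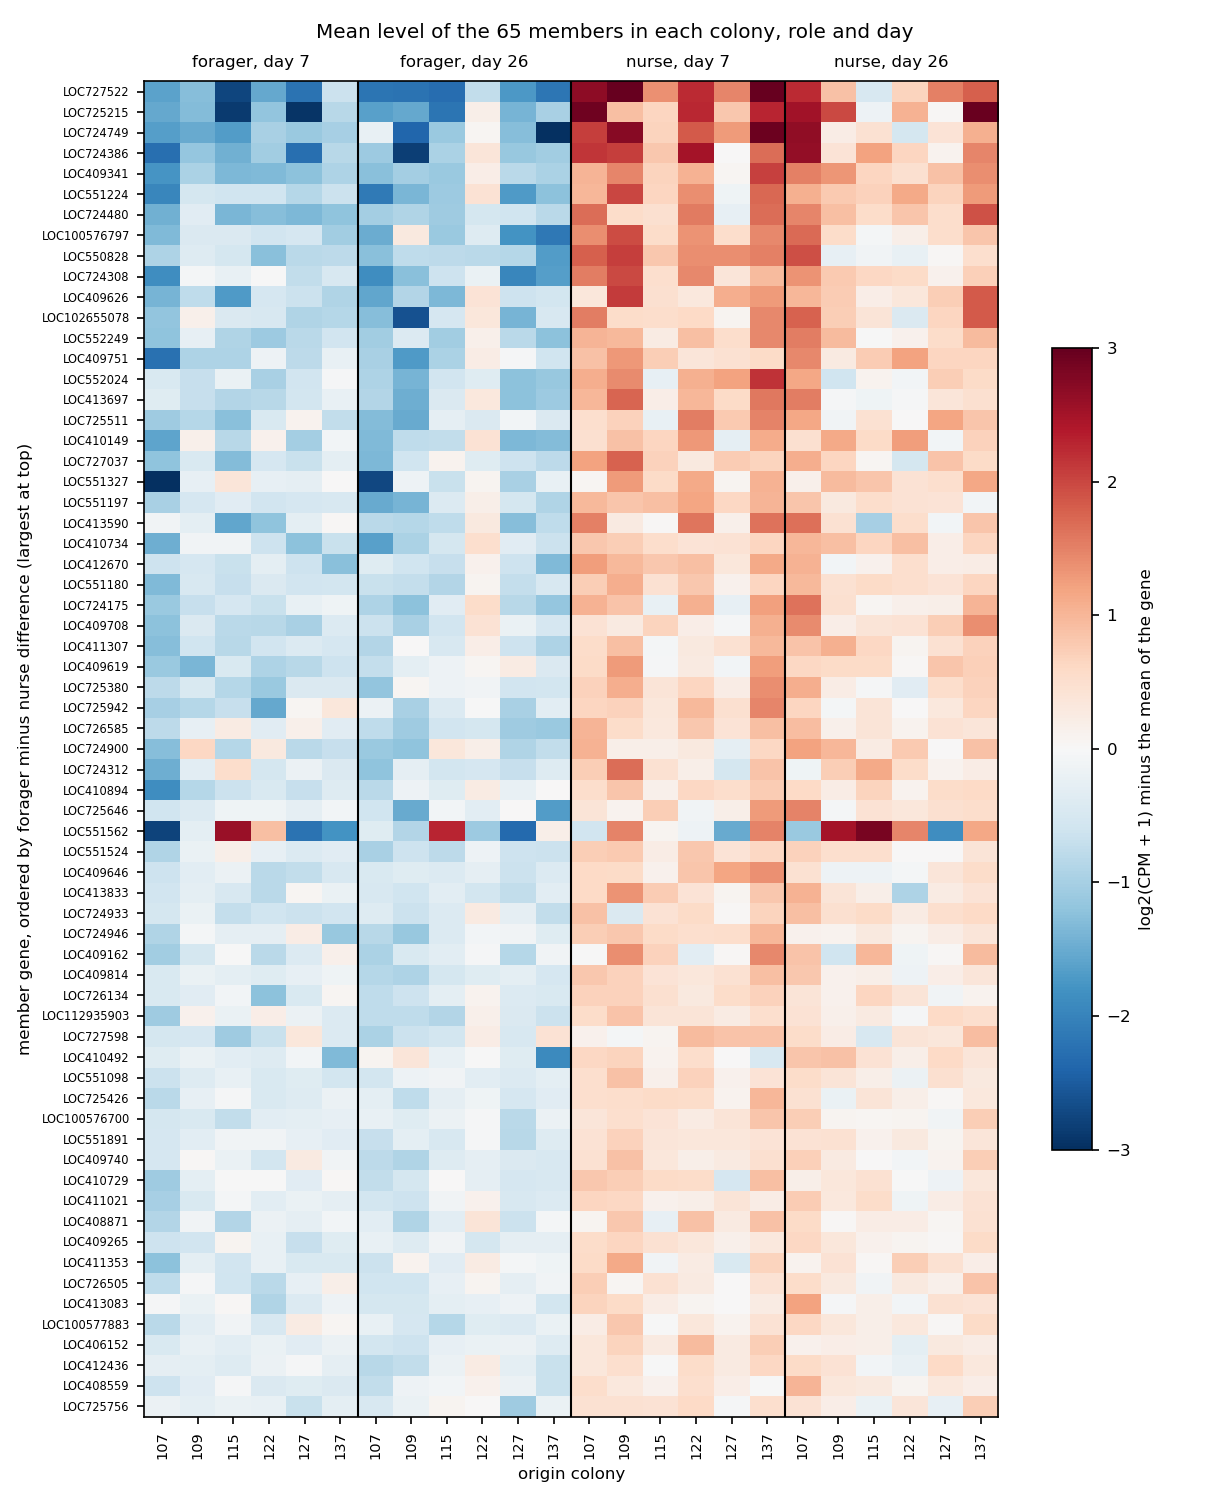
Mean log2(CPM + 1) of each of the 65 genes in each colony, role and day, less the mean of the gene, with foragers on the left and nurses on the right and colours held at 3 in either direction. Foragers are mostly below and nurses mostly above the gene mean, and LOC551562 departs from this in colony 115, where its difference was 0.63. In colony 122 at day 26 some genes, LOC724749 among them, have a higher mean in foragers than in nurses.

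The same measure was read in bees that the choice had not used. When the rule was applied to 5 colonies at a time, it chose 51 to 73 genes, of which 49 to 62 were among the 65. In the colony left aside, the genes so chosen had a median R of -1.38 in colony 107, -0.75 in 109, -0.56 in 115, -0.43 in 122, -0.59 in 127 and -0.88 in 137. R was below 0 for 50 of 51 genes in colony 107, 65 of 67 in 109, 69 of 73 in 115, 64 of 68 in 122, 63 of 67 in 127 and 62 of 62 in 137. Among the other LOC genes, R was below 0 for 11.3% to 25.7%, and its median lay between 0.13 and 0.40.

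A forager library of colony 107 at day 7 (replicate 1), with 81736 counts, had also stayed outside the choice. Of the 65 genes, 55 (84.6%) were below the day 7 nurse median in it, against 50.6% of the 5601 LOC genes considered. Before TMM scaling the 65 genes summed to 18731 CPM there, while the day 7 medians summed to 11515 CPM in foragers and 31699 CPM in nurses. LOC727522 had 367 CPM in this library, between the forager median of 41.5 and the nurse median of 742. In 10 of the genes no count was found, which at this depth allows up to 36.7 CPM, a bound for counting error only.

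Nurses differed among themselves, which allowed a test within groups of the same role. It does not use the difference between role means. The 5 nurses with Mrjp1 in the range of the other role take part in it, however, and a fit without them is given below. For each gene a slope was fitted on the log2(CPM + 1) of Mrjp1, over libraries of the same colony, role and day, with separate slopes for foragers and nurses. A slope of 1 means that the gene doubled whenever Mrjp1 doubled. Among nurses the genes rose with Mrjp1 in 61 of 65 cases by edgeR's quasi-likelihood test with Benjamini-Hochberg adjustment, against 6.77% of the 6753 genes tested. At an adjusted p under 0.05, 0 of 65 fell, against 5.11% of the genes tested. All 65 slopes were positive by edgeR and by DESeq2, against 3331 of 6752 genes tested by edgeR. The slopes ran from 0.10 to 0.99 with a median of 0.26, and the median over all genes tested was -0.00088.

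LOC725215 had the steepest slope, 0.99 ± 0.12 (SE), close to a change in proportion to Mrjp1. LOC727522 followed with 0.90 ± 0.12, LOC409341 with 0.62 ± 0.07, LOC724749 with 0.59 ± 0.11 and LOC724386 with 0.57 ± 0.09. For comparison, Mrjp3, another royal jelly gene, had a slope of 1.16 ± 0.08. The flattest slopes were 0.10 ± 0.04 for LOC409265, with an adjusted p of 0.0401 by edgeR, 0.13 ± 0.06 for LOC410734 and 0.13 ± 0.03 for LOC406152. LOC409751, LOC410734, LOC551562 and LOC727598 did not pass. Of the other royal jelly genes Mrjp2 to Mrjp7, 5 of 6 passed, and of the yolk and storage genes Vg, Vhdl, Hex110, Hex70a and Hex70c, 5 of 5 passed.

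The slope on Vg gave a like result. Among nurses 58 of 65 genes rose with Vg by the same test, against 8.1% of the genes tested, and 0 fell at an adjusted p under 0.05, against 5.2%. All 65 slopes were positive by edgeR and by DESeq2, from 0.09 to 1.07 with a median of 0.27. LOC727522 had a slope of 1.07 ± 0.09 (SE), beside 1.04 ± 0.11 for Vhdl, a lipid carrier, and 1.34 ± 0.09 for Hex110, a storage protein gene. LOC409341 had 0.68 ± 0.06, LOC724749 0.67 ± 0.09, LOC552024 0.64 ± 0.08 and LOC724386 0.49 ± 0.10. The flattest slopes, which did not pass, were 0.09 ± 0.08 for LOC409751, 0.12 ± 0.07 for LOC727598 and 0.13 ± 0.05 for LOC410894. Genes that passed with both markers numbered 58, those with Mrjp1 alone 3 and those with neither 4. Royal jelly genes passed with Vg in 5 of 7 cases and the other yolk and storage genes in 4 of 4.

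Rising with these markers was common among genes low in foragers. Of 50 LOC genes that met the limit on R but failed a day condition, 36 (72%) rose with Mrjp1 among nurses and 36 with Vg. Of 110 other genes, named or not, whose fitted difference was as low as that of the members, 81 (73.6%) rose with Mrjp1 and 78 (70.9%) with Vg. Whether the share among the 65 exceeds these shares was not tested.

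Fewer of the 65 genes passed in fits on part of the libraries. Without the 12 libraries whose Mrjp1 lay in the range of the other role, a step chosen after seeing the data, 46 genes rose with Mrjp1, against 4.72% of the genes tested then. With Vg, 36 genes rose in that setting, against 4.82%. With day 7 fitted alone, 25 genes rose with Mrjp1, against 1.72% of the genes tested, and 38 with Vg, against 3.78%. With day 26 alone, 52 rose with Mrjp1, against 4.15%, and 49 with Vg, against 4.46%. Without replicate 2 of every group, 37 genes rose with Mrjp1, against 1.75%, and without replicate 1, 31 rose with Vg, against 2.41%. Each of these fits used fewer libraries, and the share of all genes was lower in each as well.

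**Figure D3:**
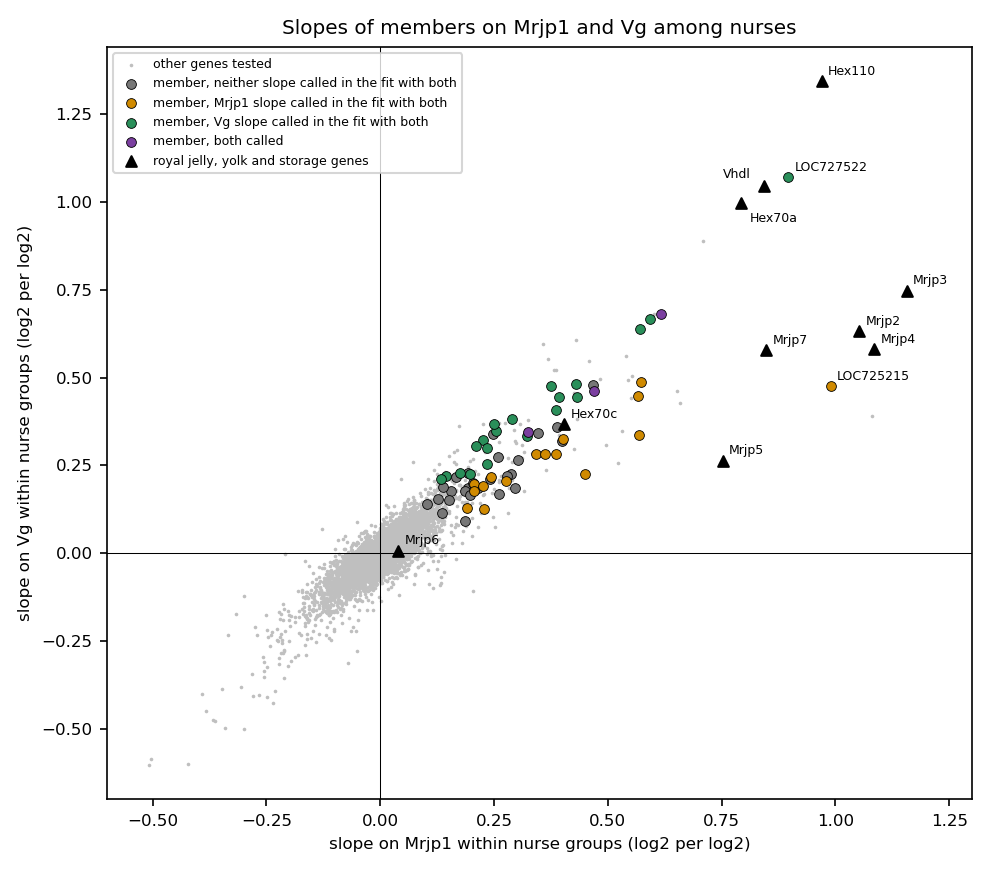
Slope on Mrjp1 against slope on Vg among nurses for every gene tested, in log2 units per log2 unit, with the 65 genes as large points coloured by which slope passed when both markers were fitted together, and named nurse genes as triangles. All 65 points lie above 0 on both axes, with LOC725215 near the royal jelly genes and LOC727522 near Vhdl and Hex70a.

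Vg itself rose with Mrjp1 among nurses, with a slope of 0.70 ± 0.12 (SE), so both were also placed in 1 fit, which gives each slope at a fixed level of the other marker. The Mrjp1 slope alone then passed in 16 genes, the Vg slope alone in 20, both in 3 and neither in 26. Over all genes tested, 0.726% passed with a positive slope on Mrjp1 and 2.19% on Vg. LOC725215 had slopes of 0.93 on Mrjp1 and 0.07 on Vg, with adjusted p of 3.55e-05 and 0.839 by edgeR. LOC724308 had 0.46 on Mrjp1 and -0.02 on Vg, and LOC102655078 had 0.54 and 0.05. These genes followed the royal jelly gene where the yolk gene was held fixed.

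LOC727522 showed the other order. Its slope was 0.33 on Mrjp1 and 0.86 on Vg, with adjusted p of 0.0647 and 8.65e-09 by edgeR. LOC725380 had 0.06 on Mrjp1 and 0.34 on Vg, LOC412670 had 0.07 and 0.43, and LOC413833 had -0.0020 and 0.37. LOC409341, LOC409708 and LOC552249 passed with both markers, at 0.31, 0.19 and 0.29 on Mrjp1 and 0.47, 0.21 and 0.28 on Vg. The 2 slopes of a gene were not tested against each other, so passing with 1 marker does not show that they differ.

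Single libraries showed the same relation in the summed level. Abundant genes weigh most in this sum, such as LOC724386 with a mean of 5172 CPM before TMM scaling. In the 7 foragers with high Mrjp1 the 65 genes summed to 13698 to 34284 CPM with a median of 16286, and in the other 39 foragers to 7215 to 17100 CPM with a median of 11059. The sums were 7437, 8390, 9833, 11154 and 41308 CPM in the 5 nurses with low Mrjp1, while the other 41 nurses spanned 13224 to 67093 CPM with a median of 37373. Of the low-Mrjp1 nurses, 4 thus lay within the range of the other 39 foragers and below each of the other 41 nurses.

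The fifth nurse, replicate 3 of colony 109 at day 7, had 2920 CPM of Mrjp1 but 926 CPM of Vg. Of the 65 genes, 33 were below the median of the other day 7 nurses in it. LOC724386 had 12656 CPM, LOC724308 2122 CPM and LOC727522 401 CPM, against medians of 9944, 1525 and 796 CPM in the other day 7 nurses. With both markers in 1 fit, the Mrjp1 slope alone had passed in 16 genes, and 10 of them were below that median here. Of the 20 genes in which the Vg slope alone had passed, 12 were below it. LOC725215 had 3.38 CPM, against a median of 40.8 CPM in the other day 7 nurses, and LOC724480 had 16.9 CPM, against 141.8 CPM. Among foragers, replicate 2 of colony 122 at day 26 had 67997 CPM of Mrjp1, 2690 CPM of Vg and the highest sum, 34284 CPM, with 430 CPM of LOC727522 and 92.7 CPM of LOC725215. Whether these libraries carry the right role label was not tested.

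**Figure D4:**
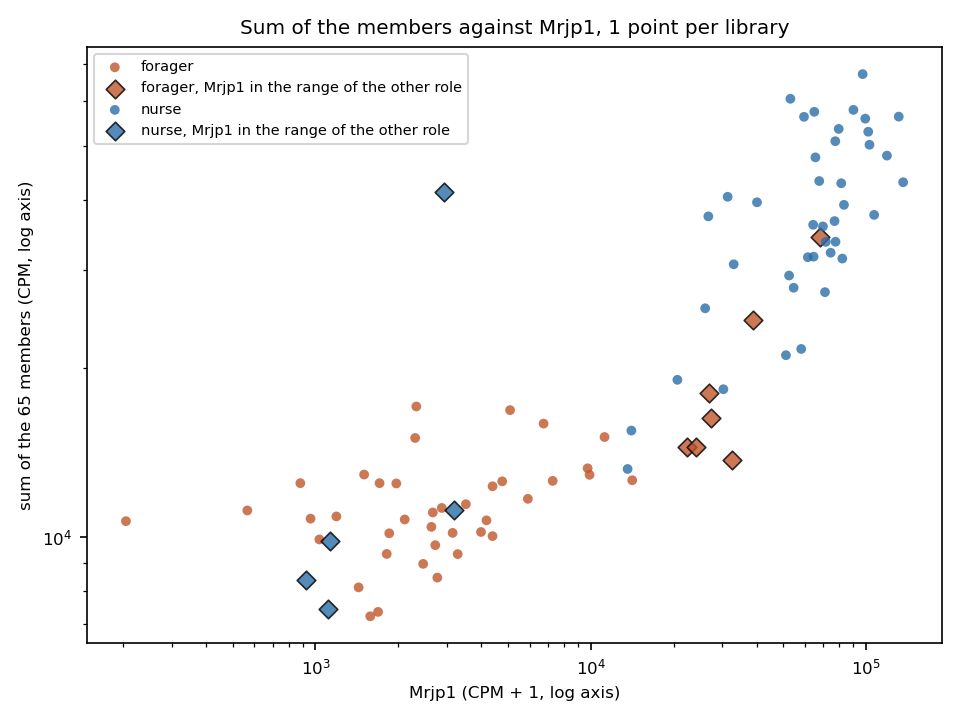
Summed CPM of the 65 genes against Mrjp1 CPM + 1 in each library, both on log axes, foragers in red and nurses in blue, with diamonds for libraries whose Mrjp1 lies in the range of the other role. The diamonds of nurses lie at 7437 to 11154 CPM, among the foragers, except 1 at 41308 CPM.

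Among foragers fewer slopes passed. On Mrjp1, 6 of 65 genes rose, against 0.533% of the genes tested, with a median slope of 0.14. An unadjusted p under 0.05 was found in 33 of 65, against 695 of 6752 genes tested. The 6 were LOC725215 with 1.10 ± 0.17 (SE), LOC102655078 with 0.49 ± 0.09, LOC410149 with 0.42 ± 0.06, LOC724308 with 0.28 ± 0.07, LOC726585 with 0.28 ± 0.07 and LOC100576700 with 0.18 ± 0.04. Without the libraries with Mrjp1 in the range of the other role, 0 of 65 passed by edgeR and 18 had a positive slope at an unadjusted p under 0.05. On Vg, 2 of 65 genes rose, LOC725380 with 0.45 ± 0.06 and LOC552249 with 0.44 ± 0.09, against 0.296% of the genes tested. An unadjusted p under 0.05 was found in 21 of 65, against 688 of 6752. Without the 2 libraries of each role farthest from the Vg median, 2 rose and 2 fell at that unadjusted p. Without the libraries with Mrjp1 in the range of the other role, 4 rose and 1 fell. At day 7 alone, 5 rose and 3 fell, and 32 of the 65 slopes were negative. By edgeR at an adjusted p under 0.05, 0 of 65 fell with either marker in foragers, against 0.133% of the genes tested for Mrjp1 and 0.0148% for Vg. With 1 marker fitted on all 92 libraries, the count was also 0 at an unadjusted p under 0.05 and by DESeq2. The difference of slopes between foragers and nurses was not tested.

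The origin colonies differed in 14 of the 65 genes (21.5%) by a joint edgeR quasi-likelihood test over 6 colony means, against 17.8% of all genes tested, so the share was close to the background. An unadjusted p under 0.05 was found in 22 of 65, against 2168 of 6753 genes tested. The distance between the highest and the lowest colony had a median of 0.61 log2 units over the 65 genes, 0.71 over the 110 other genes as low in foragers and 0.32 over all genes tested. By fitted means, the lowest colony among the 14 genes was 127 in 6, and the highest was 122 in 6 and 137 in 5. Without the libraries marked #2 the count was 6, against 6.57% of all genes in that fit, and without replicate 1, 2 or 3 it was 9, 5 or 4, against 11.6%, 4.21% or 5.6%.

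LOC551327 had the smallest adjusted p, 3.47e-08. In colony 107 it had a median of 50.8 CPM over 7 foragers and 353 CPM over 8 nurses. In the other colonies the medians were 263 to 403 CPM in foragers and 457 to 895 CPM in nurses, so foragers of colony 107 stood apart. LOC551562 spanned the widest distance, 4.20 log2 units, with an adjusted p of 2.28e-06. It was highest in colony 115, with medians of 330 CPM in foragers and 328 CPM in nurses, and lowest in colony 127, with 11.3 CPM in foragers and 22.1 CPM in nurses. In colony 109 the medians were 28.9 CPM in foragers and 387 CPM in nurses, and in colony 137 they were 21.4 and 288 CPM. Its libraries ran from 7.36 to 670 CPM within colony 122 alone.

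LOC410149 had its highest fitted mean in colony 122, with medians of 158 CPM in foragers and 334 CPM in nurses, and its lowest in colony 127, with 47.8 and 109.4 CPM. LOC409162 was highest in colony 137, with medians of 427 CPM in foragers and 1010 CPM in nurses. LOC725215 ranged over 2.79 log2 units, with medians of 2.74 CPM in foragers and 62.3 CPM in nurses of colony 137, and 1.01 CPM in foragers and 11.3 CPM in nurses of colony 127. Its adjusted p of 0.00253 by edgeR was lost without replicate 2 (0.194), without replicate 3 (0.0908) and without the libraries marked #2 (0.0515).

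**Figure D5:**
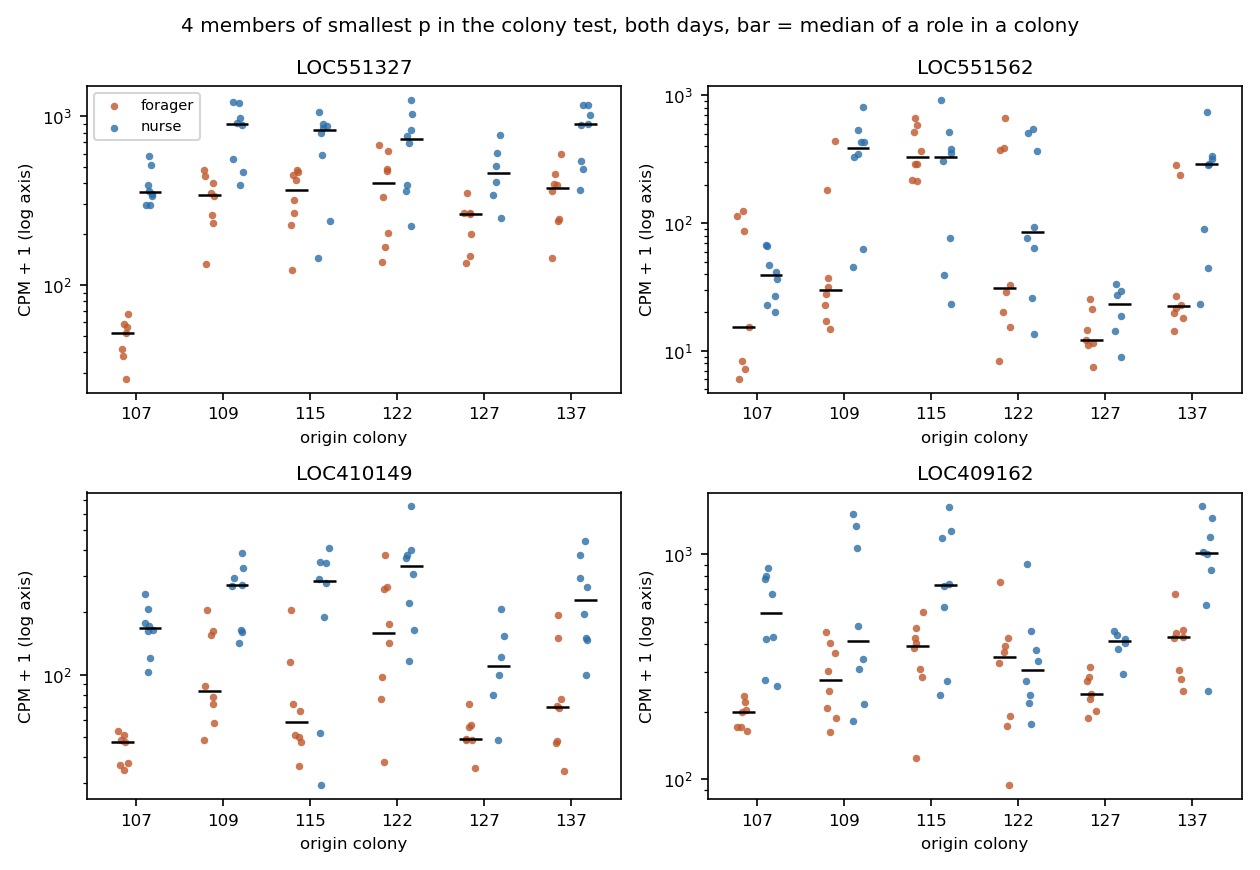
CPM + 1 on a log axis in each library by origin colony, foragers in red left of nurses in blue, for the 4 genes of smallest p in the colony test, with the median of each role as a bar. Foragers of colony 107 are low for LOC551327, at a median of 50.8 CPM, and LOC551562 is high in both roles of colony 115.

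Whether the forager minus nurse difference varied between colonies was tested as well. By edgeR 0 of 65 genes passed, against 0% of the 6753 genes tested, while 19 of the 65 and 512 of all genes had an unadjusted p under 0.05. DESeq2 called 1 of the 65, LOC551327, with an adjusted p of 0.0285, and 5 genes in all, out of 1516 to which it gave an adjusted p. LOC551327 had a log2 difference of -3.06 in colony 107 and of -0.81 to -1.32 in the others, with an adjusted p of 0.328 by edgeR. LOC409751, LOC727037, LOC102655078 and LOC411021 had the next smallest p. In LOC409751 the difference was -2.88 in colony 107 and -0.64 in colony 122, and in LOC102655078 it was -3.18 and -0.39.

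All 65 genes were found in the reference gene table, which allowed their order on the chromosomes to be read. LOC409619, LOC551180 and LOC551224 stood side by side, and LOC724946 stood beside LOC112935903. In the run of genes with LOC551180 in the middle, forager and nurse medians were 31.0 and 81.4 CPM for LOC409619, 431 and 1183 CPM for LOC551180, and 4.92 and 29.1 CPM for LOC551224. LOC727522 stood beside LOC727243, a gene turned away by a day condition, with an R of -1.94 and a Mrjp1 slope of 0.65 among nurses. Of 86 neighbours that were tested and were not members, 15 (17.4%) were lower in foragers, near the 14.8% of all genes. Another 18 of the 86 were higher, against 1028 of 6753 genes tested. The span of 12 members overlapped that of a neighbouring gene, LOC725215 and LOC409341 among them, and without a stated strand setting reads of such pairs may have been assigned to either.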

How the data were processed

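The authors deposited whole-number counts of reads per gene for 93 of 96 samples. FastQC, HISAT2, SAMtools and DESeq2 were used per the submitters' processing notes, without versions. The sources used here do not give the genome build, the counting program or its strand setting, so coordinates are left out. Entries for reads assigned to no gene stayed out of totals, and the share of reads not aligned is given with the results. All columns were mapped to samples by their labels. Replicate 1 of the day 7 foragers of colony 107 had 81736 counts, under 10% of the median total of 1288440, and was left out.

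The members and gene lists were chosen with earlier results of these data known. The rule used CPM without further scaling and a pseudocount of 1. Counts were then fitted with edgeR 4.0.16 in R 4.3.3 (TMM factors, filterByExpr with a minimum count of 10, glmQLFit with robust=TRUE). Over 92 libraries the model estimated 24 means, 1 for each combination of colony, day and role, which left 68 degrees of freedom, and 6753 genes were tested, all 65 members among them. P-values were adjusted over all genes tested by the Benjamini-Hochberg method at a threshold of 0.05. They measure the spread between these libraries, which may be technical. The fit was also run on simulated counts drawn independently for each library, which cannot show the effect of libraries that depend on each other. DESeq2 1.42.0, other scalings, no filter and subsets of the libraries served as alternatives. Libraries marked #2 in the labels counted as samples of their own.

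Genes named were the 12 of lowest R, the 5 of smallest p in either colony test, the 5 highest and 3 lowest nurse slopes on either marker, the 3 most abundant, those at the limit, neighbours of each other, and Mrjp1, Mrjp3, Vg, Vhdl and Hex110. Genes passing in foragers, the examples of the fit with both markers and LOC727243 were named after their values were seen. The table Amel_HAv3.1 of RefSeq gave gene order and older names. Hex70b was not found. Protein and promoter sequences were not used here.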

Additional observations from a re-analysis of the deposited data

Results flagged for a closer look

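In LOC551562, single libraries stood far from the others of their colony and role. Replicate 1 of colony 109 foragers at day 7 had 435 CPM, against a next value of 182 CPM among 8 libraries. Replicate 2 of colony 137 nurses at day 26 had 734 CPM, against a next value of 333 CPM among 8. Of 24 groups examined for LOC551327 and LOC551562, each over both days, 2 held such a library. How often chance gives such a gap in CPM was not tested.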

How the results depend on the processing

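Whole-bee libraries of 197805 to 2300891 counts limit genes of low level such as LOC725215, and counts of genes passing fell where libraries were left out. The genes passing on Mrjp1 among nurses (61) numbered 37 to 49 without 1 replicate number, 19 with both markers in 1 fit and 25 at day 7 alone. The shares of all genes tested that rose were 1.75% to 3.26%, 0.726% and 1.72%. Genes passing on Vg among nurses (58) numbered 31 to 46, 23 and 38 in the same settings, against 2.41% to 4.13%, 2.19% and 3.78%. Without libraries with Mrjp1 in the range of the other role the number was 36, against 4.82%. Among foragers, genes passing on Mrjp1 (6) numbered 12 with DESeq2, where 1.48% of 4658 genes passed in either direction. They numbered 1 to 7 without 1 replicate number, against 0.0591% to 0.669% of all genes rising. At day 7 alone they numbered 1, and without libraries with Mrjp1 in the range of the other role 0, against 0.104% in each. On Vg among foragers (2) they numbered 0 to 2 without 1 replicate number, against 0.0295% to 0.134%. They numbered 1 at day 7 alone (0.178%), at day 26 alone (0.267%) and without the 2 libraries of each role farthest from the Vg median (0.133%). Without libraries with Mrjp1 in the range of the other role the number was also 1, against 0.237%. Genes differing between colonies (14) numbered 4 to 9 without 1 replicate number and 6 without libraries marked #2, and DESeq2 called 1 gene for colony by role. Without replicate 1, nurses of colony 127 at day 7 had no library left, so that fit had no 3-way term.

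Of the slopes of named genes, the value turned negative for LOC406152 on Mrjp1 with both markers (-0.0092), for LOC410894 on Vg with both markers (-0.0231) and for LOC409751 on Vg with both markers (-0.0399), at day 7 alone (-0.0207) and without libraries with Mrjp1 in the range of the other role (-0.0376). The slope was positive in all 18 settings for 62 of 65 genes on Mrjp1 and 60 on Vg. The cause of these shifts was not tested. Some of these settings used fewer libraries, while the fit with both markers used the same 92. Scaling by TMM shifted the median R of the LOC genes considered from 0.22 to -0.0012, and the rule then chose 80 genes, all 65 among them. In the other settings it chose 44 to 80.

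With a replicate block, 60 genes rose with Mrjp1 among nurses and 59 with Vg, against 6.28% and 7.82% of the genes tested. Among foragers the counts were 8 and 2, against 0.592% and 0.267%. For colony 13 genes passed, against 16.8% of the genes tested, and for colony by role 0, against 0%. Between same-numbered libraries of the 2 roles, the correlation of deviations had a median of -0.016 over 33 pairs. It ran from -0.33 to 0.23 and exceeded 0.1 in 5. No reference spread was made for these values, so they cannot decide whether the numbers pair the samples, and the main fit did not pair them. Protein and promoter features, planned for the 65 genes, were not analysed here.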
